A study of Mus musculus with 18 samples.

Results

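The mRNAs of 9 Wnt pathway genes were followed through polysome gradients of wild-type (WT) and Ddx6 knockout (KO) mouse embryonic stem cells (ESCs). The 9 genes were a fixed list of pathway members, Dkk1, Axin1, Axin2, Apc, Ctnnb1, Tcf7, Tcf7l1, Lef1 and Sp5, found by symbol among the 51467 genes of the count table. DDX6 is an RNA helicase of P-bodies that acts in mRNA decay and in the repression of translation. The V6.5 ESCs of both genotypes were cultured with serum, LIF and the 2i inhibitors PD0325901 and CHIR99021. CHIR99021 blocks the kinase GSK3, so every group, the WT controls included, was grown with a drug that activates the Wnt pathway downstream of its receptors. WT cells carried no Ddx6 mutation by their labels, and the KO cells were 2 clones, with clone 1 giving KO gradient 1 and clone 2 giving KO gradients 2 and 3. Before lysis the cells received 100 ug/ml cycloheximide for 2 minutes, and each of 3 gradients per genotype was split into 3 parts by ribosome load, the monosome, a low polysome of 2 to 4 ribosomes and a high polysome of 4 ribosomes upward, for 18 libraries in 6 groups of 3.

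Total gene counts were 2543617 to 4894677 in the WT monosome libraries and at least 7043953 in the others, up to 11474550. The targeted gene Ddx6 was lower in every KO library, with means in WT of 153, 189 and 190 CPM (counts relative to the TMM-scaled library total) in the monosome, low and high polysome and in KO of 33.9, 40.4 and 26.0 CPM. The KO library of clone 1 held the most Ddx6 in each fraction, from 55.3 to 82.7 CPM against 9.68 to 26.7 CPM for clone 2. All 8 pluripotency markers passed the low-count filter, 2 of them higher and 2 lower in KO over all fractions. Of all tested genes 28.5% were higher and 28.7% lower there, shares to be read beside every marker count that follows too. The summed level of the 8, Dppa5a the most abundant, was 2303 to 5537 CPM in WT and 2432 to 4113 CPM in KO. The 3 primed markers tested (Otx2, Dnmt3b and Pou3f1) were lower in KO, with a summed level of 103 to 149 CPM in WT and 32.7 to 80.4 CPM in KO. Of 2 mesendoderm markers tested 1 was lower (summed over 5, 5.97 to 16.3 CPM in WT and 5.23 to 9.27 in KO), as were 2 of 3 neuroectoderm markers (summed over 4, 66.8 to 116 and 49.1 to 121 CPM), and none of 5 endoderm markers reached the filter. The summed level of 7 fibroblast markers was 4.65 to 10.7 CPM in WT and 5.79 to 11.1 CPM in KO, with Col3a1 at 0 in every library. The 4 trophoblast markers summed to 2.82 to 6.90 CPM in WT and 9.23 to 22.8 CPM in KO. Krt7 averaged 0.61 CPM in WT and 9.13 CPM in KO, and Cdx2 averaged 0.11 and 2.41 CPM. Eomes went the other way, from 4.26 CPM in WT to 3.28 CPM in KO, and Elf5 was near 0 in both. In bulk libraries, fewer cells with an mRNA and less of it per cell cannot be told apart, and the part of these marker differences in the results was not tested.

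Wnt ligands bind Frizzled and LRP receptors on the cell surface, and secreted proteins such as DKK1 block this step by binding LRP5 and LRP6. Without a signal, a destruction complex built on AXIN1 or AXIN2 and APC, with the kinases GSK3 and CK1, marks β-catenin (the product of Ctnnb1) for degradation. When the complex is off, β-catenin enters the nucleus and joins the DNA-binding factors TCF7, TCF7L1 and LEF1. In ESCs TCF7L1 acts mainly as a repressor, and its relief by β-catenin supports self-renewal. Axin2 and Sp5 are common targets of the pathway in many cell types, and Dkk1 and Lef1 are targets in some, so that several members also report on signalling.

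DDX6 acts with microRNAs (miRNAs), and the abundant ESCC miRNAs of mouse ESCs, made from the miR-290 and miR-302 clusters, share the seed bases AAGUGC. The next base differs in some of them, such as miR-290a-3p. The mature sequences of 3 of them are shown from RefSeq (GRCm38), 5′ to 3′, with the seed (bases 2 to 8) in capitals, because sites for this seed occur in the 3′ UTRs of some members.
miR-291a-3p: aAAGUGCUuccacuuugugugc
miR-294-3p: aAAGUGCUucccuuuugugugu
miR-302b-3p: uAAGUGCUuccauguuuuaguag

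The 3′ UTR of each gene's transcript with the longest coding sequence (Gencode M21, GRCm38) was searched for AGCACTT and GCACTTA. For the miRNAs shown, AGCACTT pairs with all 7 seed bases, and GCACTTA pairs with 6 and has an A opposite base 1. Of the 9 members, 3 held such a site, and of the 11765 tested genes with a 3′ UTR 18.4% did. These are the windows of the 3 sites, with the matched bases in capitals.
Dkk1 (chr19:30546954-30546976, minus strand): tcagtgtgGCACTTAcctgtaaa
Tcf7 (chr11:52252453-52252475, minus strand): ataaccccAGCACTTgcgagata
Lef1 (chr3:131224070-131224092, plus strand): aaaagcccAGCACTTgaattgtt

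Promoters were searched because Dkk1 and Sp5 lie downstream of TCF and LEF factors. The RefSeq promoter windows (250 bases before to 50 after the start) were scanned on both strands for the TCF/LEF motif CTTTGNN with A or T in each of the last 2 places, whose matches cannot overlap on a strand. The 7 members with an entry had 12 promoters, of which 3 held a match, and of all 32851 promoters 16.9% did. Dkk1 had matches starting 117 and 98 bases before its start, Sp5 had matches 222 and 104 bases before its start, and 1 of the 4 Lef1 starts had 1 match. The 250 bases before the start of Dkk1 and Sp5 follow, in the direction of transcription, with the matches in capitals.
Dkk1 (chr19:30549497-30549746, minus strand): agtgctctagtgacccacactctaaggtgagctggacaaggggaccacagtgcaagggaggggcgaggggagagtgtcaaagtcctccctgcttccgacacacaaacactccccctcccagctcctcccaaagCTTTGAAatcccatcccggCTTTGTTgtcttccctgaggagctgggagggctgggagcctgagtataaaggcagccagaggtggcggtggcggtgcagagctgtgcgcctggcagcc
Sp5 (chr2:70474673-70474922, plus strand): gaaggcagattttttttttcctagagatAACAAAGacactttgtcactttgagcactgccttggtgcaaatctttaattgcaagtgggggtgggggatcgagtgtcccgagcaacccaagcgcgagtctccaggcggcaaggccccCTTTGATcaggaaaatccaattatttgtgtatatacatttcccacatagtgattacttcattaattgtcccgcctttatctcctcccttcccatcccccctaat
A match is a run of letters and not a measured binding site. Axin1 and Apc had no promoter entry.

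The levels of the members covered a wide range. The libraries counted transcript 3′ ends, so that a read marks a transcript whatever its length, and CPM were not divided by length when genes were compared. As the mean log2(CPM + 0.5) over the 3 fractions of a gradient, the order in WT was Tcf7l1 (8.12 to 8.27), Ctnnb1 (7.53 to 7.61), Axin1 (6.58 to 6.72), Tcf7 (5.26 to 5.81), Apc (4.78 to 5.43), Axin2 (3.53 to 4.00), Lef1 (1.20 to 1.35), Dkk1 (0.58 to 1.10) and Sp5 (-0.23 to 0.34). Only Tcf7 and Apc overlapped among neighbours in this order. In KO the first 5 places were held by the same genes, with Tcf7l1 at 8.49 to 8.63, Ctnnb1 at 7.91 to 8.21, Axin1 at 6.53 to 6.62, Tcf7 at 4.94 to 5.40 and Apc at 4.35 to 4.57. Dkk1 came next at 3.51 to 4.07, in overlap with Axin2 at 3.49 to 3.57, followed by Sp5 at 0.97 to 1.38 and Lef1 at -0.90 to -0.15. Of the 9 members 7 passed the filter of 3 CPM in 3 libraries and were tested, and Lef1 and Sp5 reached 3 CPM in no library. Dkk1 passed through its KO libraries alone, being above 3 CPM in 9 libraries, and so had to differ between the genotypes.

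**Figure D1:**
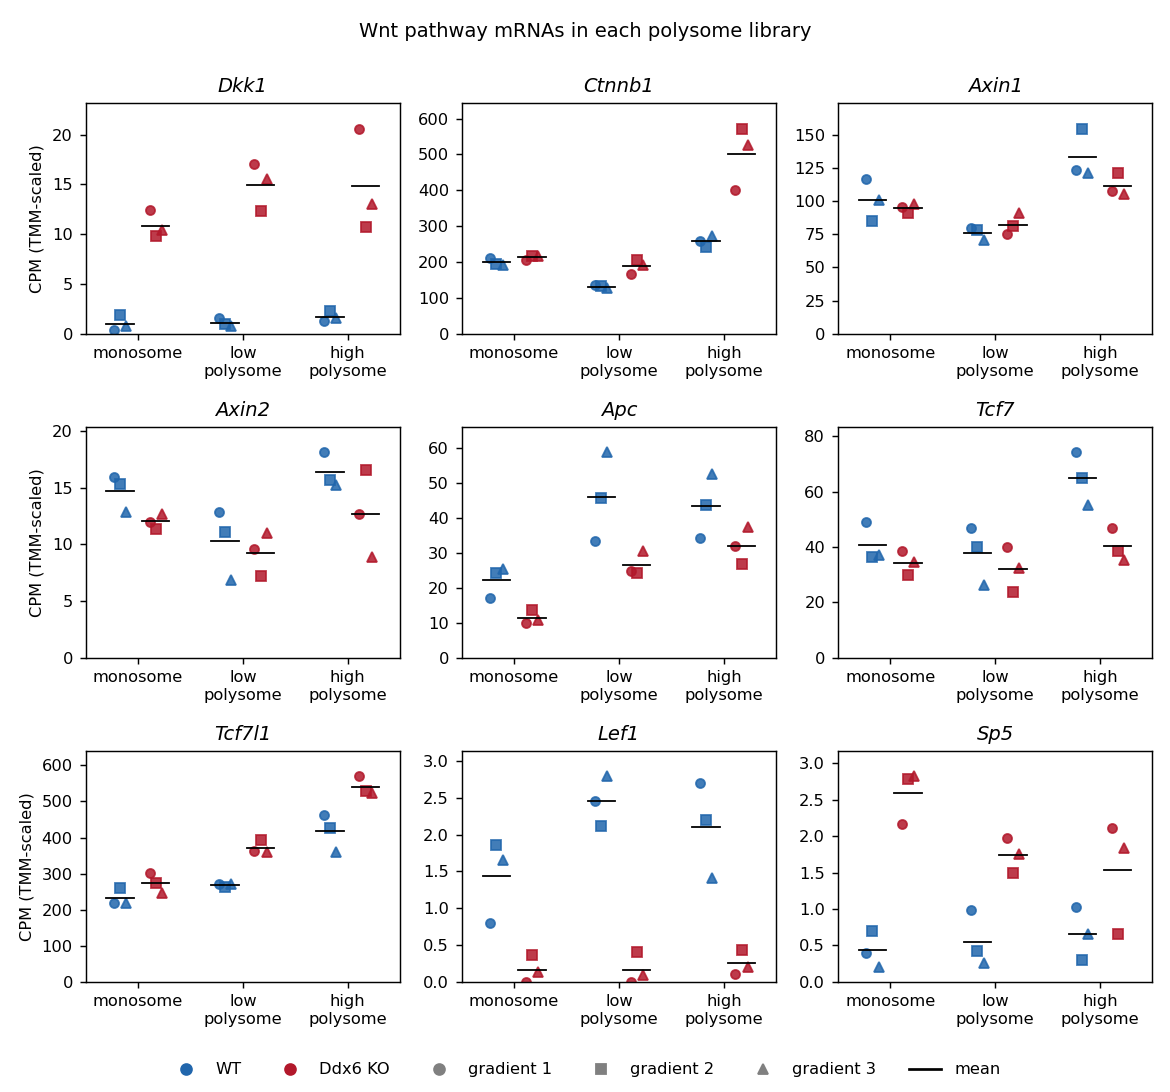
CPM (TMM-scaled, linear axis from 0) of the 9 Wnt pathway mRNAs in each of the 18 libraries, by fraction, with WT in blue, Ddx6 KO in red, a symbol for each gradient and a line at the mean of 3. Dkk1 and Sp5 are higher in KO in the monosome and low polysome without overlap, Lef1 is lower in KO in every fraction, and Ctnnb1 separates the genotypes in the low and high polysome and overlaps in the monosome.

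To ask how the loss of DDX6 changed the abundance of the members, each fraction of KO was set against the same fraction of WT, as was the mean of the 3 fractions of a gradient. In the monosome 1 of the 7 tested members rose (Dkk1) and 1 fell (Apc), where 18.6% of all 12705 tested genes were called higher and 20.1% lower. In the low polysome Dkk1, Ctnnb1 and Tcf7l1 rose and Apc fell, beside 23.4% and 24.3% of all genes. In the high polysome Dkk1, Ctnnb1 and Tcf7l1 rose and Tcf7 fell, beside 25.3% and 21.1%. The balance there depended on scaling, with 3215 genes higher and 2687 lower here, 2856 and 3160 with DESeq2 size factors, and 2920 and 3027 with library size alone. The same 3 members rose under both, and with DESeq2 size factors 3 fell (Tcf7, Apc and Axin1) and with library size alone 2 (Tcf7 and Axin1). Over all fractions 3 members rose and 2 fell, beside 28.5% and 28.7% of all genes, so that a called member was not unusual among the genes tested. Dkk1 is counted among those that rose in each comparison, although it entered the tests through KO alone. Without it, the members that rose in the polysome fractions and over all fractions were Ctnnb1 and Tcf7l1. The median log2 change of the 7 was -0.07 over all fractions and -0.02 for all genes. The sizes of the changes were unequal, from 3.01 for Dkk1 to -0.70 for Apc. All p-values measure the spread between these gradients, which the labels do not tie to separate cultures. The 3 KO gradients came from 2 clones, so the p-values do not measure the spread between independent KO lines.

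Dkk1, the inhibitor that acts at the top of the pathway, was higher in KO in every fraction. Its level in the WT monosome libraries was 0.40, 1.86 and 0.83 CPM and in the KO monosome libraries 12.4, 9.79 and 10.4 CPM. In the low polysome WT had 1.59, 0.99 and 0.76 CPM and KO had 17.1, 12.3 and 15.5 CPM. In the high polysome WT had 1.28, 2.30 and 1.60 CPM and KO had 20.6, 10.8 and 13 CPM. Every KO library was above every WT library, and clone 1 gave the highest KO value in each fraction. In log2 the monosome difference was 3.32 (SE 0.55, adjusted p = 8.38e-05, limma), the low polysome difference 3.72 (SE 0.43, adjusted p = 8.00e-07) and the high polysome difference 3.02 (SE 0.35, adjusted p = 9.33e-07). Over all fractions it was 3.01 (SE 0.19, adjusted p = 5.17e-08). These tests are a description, since Dkk1 reached the filter in KO alone. Without clone 1 the high polysome difference was 2.76.

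The WT level of Dkk1 rested on few reads, with 1 to 23 counts per library against 81 to 185 in KO. Summed over the 3 fractions of a gradient, WT had 24, 38 and 27 counts and KO had 412, 270 and 385 counts. The 95% exact Poisson intervals ran from 0.78 to 2.46 CPM for WT and from 9.54 to 18.7 CPM for KO, without overlap. Dkk1 had passed the filter through KO alone, so a gap between the genotypes was built in. The pooled KO level was 9.65 times the pooled WT level. These intervals cover counting error only and not the spread between gradients. The reads carried no molecular identifiers, so repeat reads of a molecule were not removed. The Dkk1 gene lies on chromosome 19 (GRCm38, 30545863 to 30549665, minus strand), with its 7mer ESCC site 217 bases into a 3′ UTR of 1322 bases.

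The 5 genes whose log2 CPM over the 18 libraries correlated most with Dkk1, among 9029 genes with a mean of at least 10 CPM, were St8sia1 (Pearson's r 0.980), Id1 (0.979), Rhox6 (0.974), Emp1 (0.974) and Bcl2l13 (0.973). St8sia1 makes the ganglioside GD3, ID1 is an inhibitor of helix-loop-helix factors, and Rhox6 is a homeobox gene of the X chromosome. All of them were higher in KO, by 1.25 (Bcl2l13) to 5.11 (Rhox6) in log2 over all fractions. The 18 libraries share gradients, fractions and genotypes and are not independent points, so these values are a description.

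Among the members of the destruction complex, Apc fell and the AXIN genes did not pass the test. Apc, the large scaffold whose loss stabilises β-catenin, had 17.1, 24.2 and 25.3 CPM in the WT monosome and 9.82, 13.5 and 10.8 CPM in the KO monosome. In the low polysome WT had 33.3, 45.5 and 58.6 CPM and KO had 24.8, 24.3 and 30.6 CPM. In the high polysome WT had 34.3, 43.5 and 52.5 CPM and KO had 32.0, 26.9 and 37.3 CPM. The genotypes did not overlap in the monosome and the low polysome, and they overlapped in the high polysome. The monosome log2 difference was -1.0 (SE 0.27, adjusted p = 0.00601), the low polysome one -0.74 (SE 0.20, adjusted p = 0.00481) and the high polysome one -0.44 (SE 0.19, adjusted p = 0.0701). Over all fractions Apc fell by 0.70 (SE 0.15, adjusted p = 0.00120). Without WT gradient 1 the high polysome difference was -0.65 and passed the test. It passed with DESeq2 size factors too, at -0.51, and by the DESeq2 test (-0.51).

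Axin1, the scaffold of the complex, had means of 101 ± 15.7 CPM (SD, n = 3) in the WT and 94.9 ± 3.27 CPM in the KO monosome, and 76.2 ± 4.73 and 82.3 ± 8.16 CPM in the low polysome. Its high polysome means were 133 ± 18.8 CPM in WT and 111 ± 8.34 CPM in KO, a log2 difference of -0.25 (SE 0.13, adjusted p = 0.110). That value passed the threshold without WT gradient 1 (-0.37), with DESeq2 size factors (-0.32), by the DESeq2 test (-0.33) and with library size alone (-0.31). In the monosome the sign of the difference itself depended on the setting, from -0.07 here to 0.04 without WT gradient 1. Axin2, a feedback inhibitor and target of the pathway, had 12.8 to 15.9 CPM in the WT and 11.4 to 12.7 CPM in the KO monosome, 6.85 to 12.9 and 7.23 to 11 CPM in the low polysome, and 15.3 to 18.1 and 8.90 to 16.5 CPM in the high polysome. Over all fractions its log2 difference was -0.26 (SE 0.14, adjusted p = 0.116). It was -0.39 and called without WT gradient 3, and in the high polysome -0.40 (SE 0.21, adjusted p = 0.128), or -0.61 and called without KO gradient 2.

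Ctnnb1, which encodes β-catenin itself, rose in both polysome fractions and did not pass the test in the monosome. The WT monosome had 211, 195 and 191 CPM and the KO monosome 206, 217 and 217 CPM, which overlapped. In the low polysome the values were 136, 133 and 127 CPM in WT and 168, 207 and 192 CPM in KO. In the high polysome WT had 260, 241 and 273 CPM and KO had 402, 572 and 528 CPM. All KO values lay above all WT values in both polysome fractions, and clone 1 was the lowest KO library in each. As log2 differences, the monosome gave 0.10 (SE 0.13, adjusted p = 0.553), the low polysome 0.51 (SE 0.13, adjusted p = 0.00215) and the high polysome 0.94 (SE 0.12, adjusted p = 3.64e-06). Over all fractions it was 0.52 (SE 0.09, adjusted p = 0.000335).

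The 3 DNA-binding factors of the set did not move together. Tcf7l1, the most abundant member, had 219, 261 and 217 CPM in the WT and 301, 274 and 245 CPM in the KO monosome. It had 272, 263 and 271 CPM in the WT and 362, 394 and 359 CPM in the KO low polysome, and 463, 427 and 361 CPM in the WT and 569, 530 and 525 CPM in the KO high polysome. The polysome values did not overlap and the monosome values did. The low polysome log2 difference was 0.47 (SE 0.12, adjusted p = 0.00245), the high polysome one 0.38 (SE 0.12, adjusted p = 0.00990) and the monosome one 0.23 (SE 0.12, adjusted p = 0.128). Without WT gradient 3 the high polysome value was 0.28 and no longer passed, and the monosome value passed with library size alone (0.30) and with no filter (0.33). Over all fractions Tcf7l1 rose by 0.36 (SE 0.08, adjusted p = 0.00236).

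Tcf7, an activating TCF factor, had 74.2, 65.1 and 55.2 CPM in the WT and 47.0, 38.6 and 35.5 CPM in the KO high polysome. All KO values lay below the WT values there, with a log2 difference of -0.68 (SE 0.19, adjusted p = 0.00679). The genotypes overlapped in the low polysome, at -0.21 (SE 0.21, adjusted p = 0.417), and in the monosome, at -0.22 (SE 0.22, adjusted p = 0.462). Over all fractions Tcf7 fell by 0.38 (SE 0.14, adjusted p = 0.0390), a call that was lost without WT gradient 1 (-0.26), WT gradient 2 (-0.38), KO gradient 2 (-0.27) or KO gradient 3 (-0.38), and with no filter on low counts (-0.34).

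Lef1 and Sp5 were below the filter, and are described by their reads. Lef1, an activating partner of β-catenin, had 43, 45 and 45 counts over the 3 fractions of each WT gradient and 1, 10 and 4 counts for KO. In CPM this was 2.24, 2.13 and 1.96 in WT and 0.04, 0.40 and 0.14 in KO, with 95% intervals from 1.43 to 3.02 and from 0.00104 to 0.735. The pooled WT level was 11 times the pooled KO level, and every KO library was below every WT library in each fraction. In a limma fit with no filter on low counts Lef1 fell in the monosome (log2 -3.11, SE 0.71, adjusted p = 0.00278), the low polysome (-3.90, SE 0.62, adjusted p = 5.47e-05) and the high polysome (-2.91, SE 0.63, adjusted p = 0.00142). In that fit 25.2%, 23.3% and 22.5% of 27427 genes were called in the 3 fractions.

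Sp5, a zinc finger target gene that dampens the response to Wnt, had 17, 9 and 10 counts per WT gradient and 51, 40 and 60 counts per KO gradient. As CPM this was 0.89, 0.43 and 0.44 against 2.10, 1.60 and 2.05, with 95% intervals from 0.19 to 1.42 and from 1.1 to 2.76. The pooled KO level was 3.38 times the pooled WT level. With no filter Sp5 rose in the monosome (log2 2.41, SE 0.58, adjusted p = 0.00460) and the low polysome (1.75, SE 0.55, adjusted p = 0.0226), and was at 1.16 (SE 0.52, adjusted p = 0.121) in the high polysome, where 1 KO library, at 0.65 CPM, lay within the WT range of 0.30 to 1.03 CPM. By their mean over fractions, 4 of the 7 tested members separated the genotypes completely, as did 63.0% of all tested genes. They were Apc, Ctnnb1, Tcf7l1 and Dkk1, the last of which had passed the filter through KO alone. Lef1 and Sp5 separated as well. For each of these 6 the exact permutation test over 3 against 3 gradients gave its smallest possible p of 0.1.

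**Figure D2:**
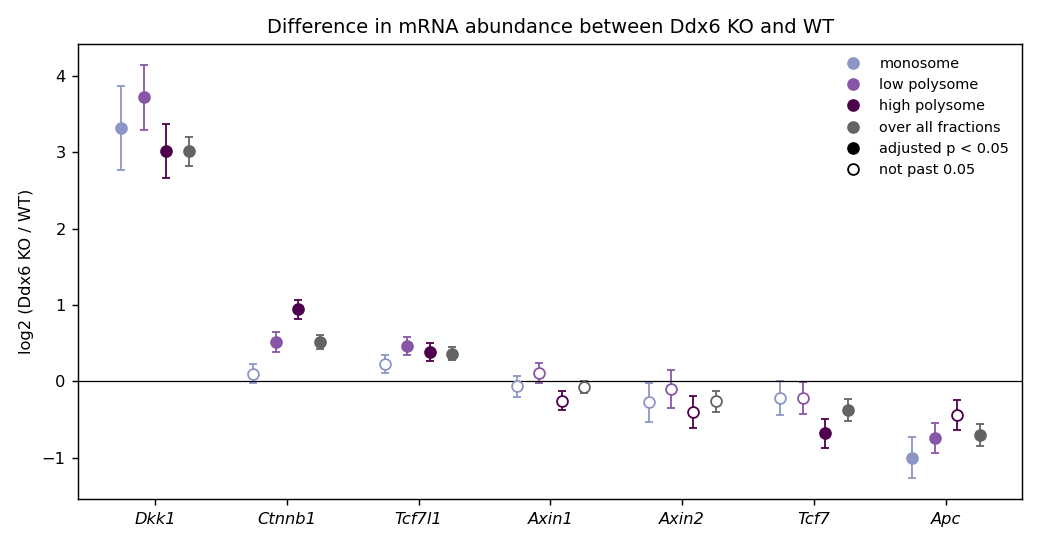
Log2 difference between Ddx6 KO and WT (point, with SE as bar) for the 7 tested members in the monosome, low polysome, high polysome and over all fractions, with filled points for an adjusted p under 0.05 (limma). Dkk1, which passed the filter through KO alone, stands at 3.01 to 3.72. Ctnnb1 goes from 0.10 in the monosome to 0.94 in the high polysome, and Apc goes from -1.0 to -0.44.

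Translation level, here the high polysome over the monosome, was examined next. In WT, 5 of the 7 members were higher in the heavier fraction and none was lower, where 28.9% of all genes were higher and 32.2% lower. The log2 ratios were 0.93 for Apc (SE 0.23, adjusted p = 0.00190), 0.84 for Tcf7l1 (SE 0.12, adjusted p = 3.61e-06), 0.69 for Tcf7 (SE 0.21, adjusted p = 0.00871), 0.41 for Axin1 (SE 0.13, adjusted p = 0.0110) and 0.38 for Ctnnb1 (SE 0.13, adjusted p = 0.0143). The count fell to 2 without WT gradient 2, where Tcf7 was at 0.61, Axin1 at 0.18 and Ctnnb1 at 0.41, and Ctnnb1 also missed the threshold without WT gradient 3 (0.30). In KO, Apc (1.49), Ctnnb1 (1.22) and Tcf7l1 (0.99) were higher in the high polysome and none was lower, beside 35.0% and 33.6% of all genes.

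Dkk1 mRNA in KO was spread over the fractions, with 10.9 ± 1.35 CPM in the monosome, 15.0 ± 2.44 in the low and 14.8 ± 5.16 in the high polysome. Its KO log2 ratio of high polysome to monosome was 0.39 (SE 0.22, adjusted p = 0.123) without a block. With the gradient as a replicate block, since the fractions of a gradient come from 1 lysate, it was 0.42 and passed (adjusted p = 0.0401). The block did the same for low polysome over monosome in KO, from 0.46 (adjusted p = 0.105) to 0.47 (adjusted p = 0.0390).

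The KO effect on translation level is the difference between these ratios. Of all genes 10.7% had a higher and 7.09% a lower translation level in KO, or 1357 and 901 genes, a split that turned to 936 and 1386 with library size alone, where the median over all genes moved from 0.02 to -0.10. Among the members only Ctnnb1 passed this test, with a higher translation level in KO. The WT gradients had log2 ratios of 0.30, 0.31 and 0.51, and the KO gradients had 0.96, 1.40 and 1.28. No KO gradient overlapped WT, and the interaction was 0.84 (SE 0.18, adjusted p = 0.00356). With library size alone it was 0.72 and still passed, and the exact permutation p over gradients was 0.1, the smallest possible. When the trend of this effect with coding length over all genes was removed, the Ctnnb1 value (coding length 2343 bases) was 0.48 and did not pass. That correction left 423 higher and 273 lower of 11778 genes with a coding length.

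For the other members the interaction did not pass the test. Apc, with the longest coding sequence of the set (8526 bases), had ratios of 0.98, 0.84 and 1.04 in WT and 1.65, 0.96 and 1.75 in KO, with an interaction of 0.56 (SE 0.33, adjusted p = 0.250). Tcf7 had 0.59, 0.83 and 0.57 in WT and 0.28, 0.36 and 0.04 in KO, without overlap, and an interaction of -0.46 (SE 0.30, adjusted p = 0.292). Of the members with an ESCC site, Lef1 was below the filter and was not tested here, and Tcf7 and Dkk1 did not pass. For Dkk1 the interaction was -0.30 (SE 0.65, adjusted p = 0.786), with ratios of 0.99, 0.25 and 0.66 in WT and 0.71, 0.13 and 0.31 in KO, where the WT monosome libraries held 1, 8 and 4 Dkk1 reads. Tcf7l1 was at 0.15 (SE 0.17, adjusted p = 0.557), Axin1 at -0.18 (SE 0.18, adjusted p = 0.512) and Axin2 at -0.13 (SE 0.33, adjusted p = 0.823).

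**Figure D3:**
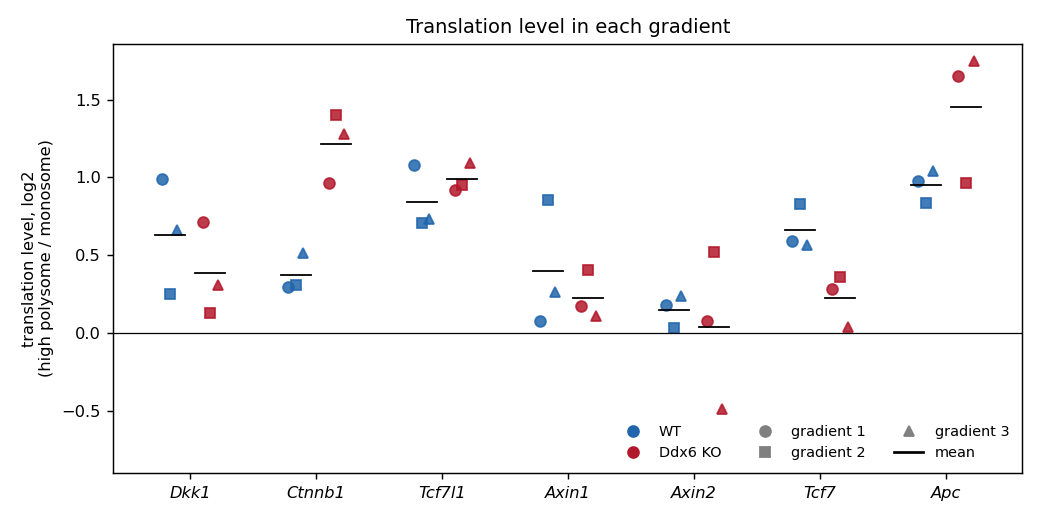
Translation level, log2 of high polysome over monosome CPM with 0.5 CPM added to each, in every gradient for the 7 tested members, WT in blue and Ddx6 KO in red, with a line at the mean of 3. Ctnnb1 is the member with the widest gap between the genotypes, 0.30 to 0.51 in WT and 0.96 to 1.40 in KO, and Tcf7 also separates, downward.

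The low polysome over the monosome showed a different order. In WT, Apc was higher in the low polysome (0.98, SE 0.24, adjusted p = 0.00222) and Ctnnb1 (-0.59, SE 0.13, adjusted p = 0.000838) and Axin1 (-0.38, SE 0.14, adjusted p = 0.0268) were lower, beside 43.2% of all genes called in either direction. The Axin1 call was lost without WT gradient 1 (-0.32), without WT gradient 3 (-0.32), with no filter (-0.29) and with the compared groups fitted alone (-0.38). In KO, Apc (1.23) and Tcf7l1 (0.45) were higher and none was lower, beside 41.1% of genes, and Tcf7l1 was at 0.37 and not called without KO gradient 3. The KO effect on this ratio passed the test for 0 of the 7 members by limma and also by edgeR and DESeq2, and for 1 at an unadjusted p under 0.05 (Ctnnb1, 0.41, SE 0.18, adjusted p = 0.192). It was called for 4.71% of all genes, and 2635 of all 12705 genes had an unadjusted p under 0.05.

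Beyond the 9 members, 103 other genes of the pathway were listed by role, of which 67 passed the filter. In the high polysome 19 of the 67 rose and 15 fell (28.4% and 22.4%, beside 25.3% and 21.1% of all genes). Over all fractions 25 rose and 21 fell (37.3% and 31.3%, beside 28.5% and 28.7%), and translation level rose for 7 and fell for 4 (10.4% and 5.97%, beside 10.7% and 7.09%). The median log2 change in the high polysome was 0.06 for the 67 and -0.01 for all genes. Of the 67, 5 passed the filter through the libraries of 1 genotype alone and so had to differ, Wnt11, Frzb and Apcdd1 through KO and Sfrp2 and Nkd1 through WT. Without these 5, 16 of 62 rose and 13 fell in the high polysome. The counts by role rest on few genes, to be read against the 25.3% and 21.1% of all genes, and are given as a description.

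Of 25 ligands and export factors 7 were tested, and 5 rose and 0 fell in the high polysome by limma, or 4 of 6 without Wnt11, with the same 5 and 0 under DESeq2 size factors and library size alone. The 5 were the ligands Wnt5b, Wnt7b and Wnt11 and the export factors Porcn and Wls, of which Wnt5b, Wnt7b and Wls were named after their values were seen. In the monosome 6 rose, Wnt11 among them, and 1 fell (18.6% and 20.1% of all genes). The low polysome had 5 and 1 (23.4% and 24.3%), and all fractions together 6 and 1 (28.5% and 28.7%). Rspo1, named after its value was seen, went from 10.9 ± 0.47 to 2.46 ± 0.97 CPM in the monosome. Porcn, the enzyme that acylates Wnt proteins for secretion, went from 18.2 ± 1.72 to 129 ± 11.5 CPM (SD, n = 3, log2 2.83, SE 0.22). Wnt11, which mainly signals outside the β-catenin branch, went from 0.60 ± 0.38 to 2.35 ± 1.07 CPM (2.00, SE 0.57). Of 17 receptors tested 4 rose and 4 fell, or 3 and 6 with DESeq2 size factors or library size alone, among them Fzd7, a Frizzled receptor of ESCs (26.5 ± 2.21 to 75.2 ± 13.4 CPM), and the co-receptor Lrp6 (118 ± 21.9 to 199 ± 55.4 CPM) on one side. On the other side Fzd10 went from 111 ± 7.93 to 66.2 ± 6.64 CPM and Fzd6 from 18.4 ± 2.91 to 11.9 ± 0.13 CPM.

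Secreted inhibitors other than Dkk1 went both ways, with 2 of 8 higher and 3 lower in the high polysome, and 0 and 2 of the 5 that reached the filter in both genotypes. Frzb, which binds Wnt proteins, went from 4 reads in the 3 WT libraries to 145 in KO (0.14 ± 0.05 to 5.21 ± 1.72 CPM). Apcdd1, a membrane-bound inhibitor, went from 0.66 ± 0.54 to 2.5 ± 0.27 CPM. Sfrp2 (8.03 ± 1.12 to 1.87 ± 0.64 CPM) and Sfrp4 (3.95 ± 0.48 to 0.93 ± 0.19 CPM), of the same family as Frzb, fell. With DESeq2 size factors or library size alone 4 inhibitors fell in place of 3.

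Around the destruction complex 3 of 15 genes rose and 3 fell in the high polysome, with 2 rising under the other scalings. Tnks, the tankyrase that marks AXIN for degradation, rose from 43.9 ± 5.43 to 73.7 ± 9.26 CPM (0.74, SE 0.18) and Gsk3b from 190 ± 21.8 to 268 ± 16.5 CPM (0.50, SE 0.16). The GSK3-binding inhibitors Frat1 (6.85 ± 0.85 to 3.16 ± 1.01 CPM) and Frat2 (25.8 ± 7.76 to 15.7 ± 3.34 CPM) fell. Of 14 nuclear genes 5 rose and 2 fell. Tcf7l2, the fourth TCF factor, rose from 26.0 ± 4.39 to 61.4 ± 4.30 CPM (1.24, SE 0.13), and Chd8, a remodeller that binds β-catenin, rose from 82.5 ± 16.2 to 161 ± 31.5 CPM. Pygo1, a β-catenin co-activator, fell from 12.3 ± 1.64 to 6.40 ± 0.97 CPM, and Ctnnbip1, which blocks β-catenin from binding TCF factors, fell from 122 ± 20.1 to 72.9 ± 4.39 CPM.

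Of 6 other target genes tested, 0 rose and 3 fell in the high polysome by limma, or 2 of 5 without Nkd1. Tnfrsf19 went from 46.9 ± 7.72 to 6.94 ± 1.53 CPM (-2.76, SE 0.20) and Nkd1, a feedback inhibitor, from 2.35 ± 1.24 to 0.86 ± 0.21 CPM (-1.23, SE 0.45). The third was the cyclin gene Ccnd1 (-0.98, SE 0.11), which was named after its value was seen. Sp5, from the same role, was higher in KO in the monosome and low polysome. Of the 10 other targets listed only these 6 reached the filter. Among the rest, Cdx2 averaged 0.11 CPM in WT and 2.41 CPM in KO, and T averaged 0.28 and 0.03 CPM.

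**Figure D4:**
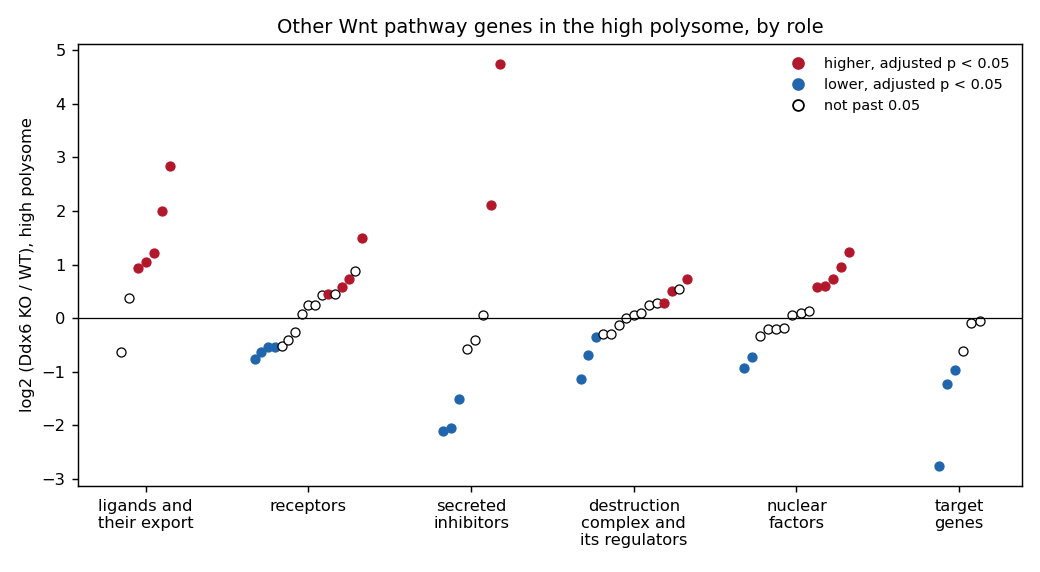
Log2 difference between Ddx6 KO and WT in the high polysome for the 67 other Wnt pathway genes tested, grouped by role, each point a gene, red if higher and blue if lower at an adjusted p under 0.05 (limma) and open if not. Of the 67 genes 19 are red and 15 blue, or 16 and 13 of the 62 that reached the filter in both genotypes. Secreted inhibitors reach from -2.11 (Sfrp2) to 4.74 (Frzb). Sfrp2 passed the filter through WT alone and Frzb through KO alone, so both had to differ. The 5 inhibitors that reached the filter in both genotypes run from -2.05 (Sfrp4) to 0.05 (Sfrp5), with 0 red and 2 blue.

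The translation level of the same 67 genes changed in fewer cases. Chd8 (1.34, SE 0.27, adjusted p = 0.00312) and Tcf7l2 (0.67, SE 0.19, adjusted p = 0.0191) rose among nuclear genes, with Ctnnbip1 (-0.77, SE 0.19, adjusted p = 0.00833) and Cby1 (-0.84, SE 0.22, adjusted p = 0.0131), both antagonists of β-catenin, falling. Amer1, which encodes an APC-binding protein (1.15, SE 0.35, adjusted p = 0.0267) and Tnks (1.13, SE 0.28, adjusted p = 0.0104) rose around the destruction complex. Of the receptors Ror2 rose (0.56) and Kremen1, a DKK1 receptor, fell (-1.11), and of the inhibitors Sfrp2 fell (-1.74). Sfrp2 had passed the filter through WT alone, with 4 to 19 reads per WT monosome library and 12 to 23 per KO high polysome library. The 11 translation calls depended on the processing. All 11 were kept with the gradient as replicate block, 9 with DESeq2 size factors and 6 with library size alone. After the coding length correction, which also removed the Ctnnb1 call, 0 were kept, with Chd8 at 0.66 and Ctnnbip1 at -0.14.

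For the other tested members, the gene most alike over the 18 libraries was Sbno1 for Apc (r 0.978), Letm1 for Tcf7l1 (0.978), Kank2 for Ctnnb1 (0.976), Mcam for Tcf7 (0.951), Tefm for Axin2 (0.949) and Abhd4 for Axin1 (0.926). As for Dkk1, these values are a description. Coordinates (GRCm38) were chromosome 2, 70474923 to 70477729 for Sp5, chromosome 3, 131110471 to 131224356 for Lef1, chromosome 6, 72626378 to 72789254 for Tcf7l1, and chromosome 9, 120929216 to 120960507 for Ctnnb1. Tcf7 lies at 52252371 to 52283014 and Axin2 at 108920349 to 108950783 of chromosome 11, Axin1 at 26138688 to 26195811 of chromosome 17, and Apc at 34220924 to 34322552 of chromosome 18.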

How the data were processed

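The authors prepared 3′ end libraries from gradient fractions of V6.5 ESCs with a QuantSeq 3′ FWD kit. Reads were trimmed with cutadapt 1.14 and aligned with STAR 2.5.3a to mm10, per the submitters' processing notes, and the authors used featureCounts 1.5.3 with strand over Gencode M14 basic to make the deposited counts of each gene. Uniquely mapped reads were used, so genes with near-identical copies are uncertain. Gene symbols and coordinates came from Gencode M21, which matched 51274 identifiers and left 193 unmatched. The 92 spike-in sequences were left out. Counts were raw, and CPM here are counts scaled by TMM. The exceptions are the CPM of Dkk1, Lef1 and Sp5 summed over fractions, with their intervals and pooled levels, which used library totals without TMM. No sample column was left unmapped.

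Genes with at least 3 CPM, before TMM scaling, in at least 3 libraries (12705) entered limma 3.58.1 (R 4.3.3) through voom after TMM scaling in edgeR 4.0.16, with 6 group means for the 18 libraries and no block. Tests were two-sided, with Benjamini-Hochberg adjustment over all genes and a threshold of 0.05, and every adjusted p in the text is from limma. KO against WT over all fractions was tested by limma-trend on the mean log2(CPM + 0.5) of each gradient. Single ratios were compared by the exact permutation test over gradients. DESeq2 1.42.0 and the quasi-likelihood test of edgeR were alternatives, and the fits were tested on simulated data. Libraries of a group differed by more than sampling noise (chi-square of the counts per degree of freedom 3.48 to 29.4), so none was counted as a duplicate. Pairing of fractions came from the shared lysate of a gradient, and the correlation of their deviations from the group means was between -0.18 and 0.48.

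The members and gene lists were chosen with earlier results of these data known. The members were named in full. Other pathway genes were named by a rule, up to 2 per role that rose and 2 that fell most in the high polysome and in translation level. The most alike genes, 5 for Dkk1 and 1 for each other tested member, were named too.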

Additional observations from a re-analysis of the deposited data

Results flagged for a closer look

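The translation level of Ctnnb1 differed between the genotypes by a test of the difference itself. Its log2 ratio of high polysome to monosome was higher in KO by 0.84 (SE 0.18, adjusted p = 0.00356, limma interaction), with all 3 KO gradients above all 3 WT gradients. Under the 14 alternatives the value ran from 0.48 to 0.96 and the adjusted p from 0.000427 to 0.107, and it missed the threshold with the coding length trend removed.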

How the results depend on the processing

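Of 960 recomputed values for single members, 909 were unchanged, 14 newly passed the threshold, 16 no longer passed it and 21 changed sign. Unchanged means the same direction and side of the threshold. For ratios with another pseudocount, which had no test, it means a shift smaller than the SD between gradients. No member called in a comparison changed sign under any alternative run. Dkk1 rose in every fraction under all 13 alternatives, from 2.76 to 4.01 in log2. It had passed the filter through KO alone and had to differ, so this agreement is a description. Counts of called members kept within 1.5 times except in 3 cases. With the coding length trend removed the KO effect on high polysome over monosome was called for 0 members in place of 1. Leaving out single gradients gave 2 to 5 members for WT high polysome over monosome and 1 to 2 for KO low polysome over monosome, the lowest with WT gradient 2 or KO gradient 3 left out.

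All values that changed sign had missed the threshold. With library size alone, Axin1 in the monosome (KO against WT) was at 0.0006981, Axin2 high polysome over monosome in KO at -0.071 and the KO effect on Tcf7 low polysome over monosome at -0.071. With no filter the first was at 0.031 and the last at -0.047. With the length trend removed the KO effects on high polysome over monosome were -0.13 for Apc and -0.078 for Tcf7l1. The rest turned when a gradient was left out, and their ranges over the gradients were as follows. Against WT, Axin1 ran from -0.19 to 0.043 in the monosome and from -0.00044 to 0.18 in the low polysome, and Axin2 from -0.37 to 0.10 in the low polysome. High polysome over monosome in KO ran from -0.22 to 0.33 for Axin2, and its KO effect from -0.41 to 0.048 for Axin1 and from -0.38 to 0.13 for Axin2. Low polysome over monosome in WT ran from -0.52 to 0.59 for Dkk1 and from -0.25 to 0.068 for Tcf7, and its KO effect from -0.13 to 0.98 for Dkk1 and from -0.18 to 0.14 for Tcf7. The cause was not tested.

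With the gradient as a replicate block the WT low polysome ratio of Dkk1 was -0.028, and beside the 2 Dkk1 calls in KO given above no other call changed. WT and KO gradients share only a number, with correlations between same-numbered libraries of -0.51 to 0.25. With that number as a replicate block Apc in the high polysome passed the test (-0.44, adjusted p = 0.0246, with a range of 0.00677 to 0.253 over all alternatives) and no other call changed. Depth limits Dkk1 in WT, and Lef1 and Sp5 throughout.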
